A study of Mus musculus with 45 samples.

Results

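Expression was followed for 9 genes that mark excitatory neurons of cortical layers and of the claustrum, namely Slc17a7, Slc30a3, Cux2, Rorb, Etv1, Tle4, Nr4a2, Rxfp1 and Syt6. They were chosen by name, and all 9 were found among the 18135 genes of the table by matching Ensembl identifiers to mouse symbols. The table holds normalized counts from RNA sequencing of 45 samples, with 5 samples for each of 3 genotypes of 3 brain regions, the cortex (taken from its prefrontal part), the hippocampus and the striatum. All mice were C57BL/6J males of 13 weeks. WT mice carried no Shank3 mutation, Shank3-HT mice carried 1 mutant copy and Shank3-HM mice carried no intact copy of the gene. The mutation removes exons 14 to 16, and no promoter or Cre line that would limit it to certain cells is named. No mouse received a treatment. The labels call the Shank3-HM mice knock-out, and the 5 mice of a genotype may each have given all 3 regions. Which samples would then share a mouse is not given, and tests between regions treated the samples as separate.

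Glutamatergic neurons of the cortex are born in an ordered sequence and settle in layers, and each layer can be told by transcription factors and synaptic proteins that its neurons keep into adulthood. The claustrum and the deepest cortical layer, 6b, lie directly beside the white matter that borders the striatum and share several of these markers. The striatum itself is built almost wholly of GABAergic neurons, so that transcripts of cortical glutamatergic neurons are low there, although a marker of a cortical layer may also be used by striatal neurons. In bulk tissue, fewer cells of a type and less RNA per cell cannot be told apart.

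All 9 genes are protein coding. In GRCm38, Slc17a7 lies on chromosome 7 (45163949 to 45176142), Slc30a3 on chromosome 5 (31086106 to 31108237), Nr4a2 on chromosome 2 (57106830 to 57124003) and Rxfp1 on chromosome 3 (79641611 to 79737880). Cux2 lies on chromosome 5 (121856366 to 122050102), Rorb on chromosome 19 (18930605 to 19111196), Etv1 on chromosome 12 (38779380 to 38870484), Tle4 on chromosome 19 (14448150 to 14598051) and Syt6 on chromosome 3 (103575231 to 103645569). The 250 bases before the transcription start are shown for the 3 genes with a RefSeq window (GRCm38.p6) among those that varied together across striatum samples. They are chr7:45163671-45163920 on the plus strand for Slc17a7, chr5:31093528-31093777 on the minus strand for Slc30a3 and chr2:57124004-57124253 on the minus strand for Nr4a2. Capitals mark the E-box CANNTG, which reads alike on both strands, and TGACG or its reverse complement CGTCA, the core of the cAMP response element.
Slc17a7: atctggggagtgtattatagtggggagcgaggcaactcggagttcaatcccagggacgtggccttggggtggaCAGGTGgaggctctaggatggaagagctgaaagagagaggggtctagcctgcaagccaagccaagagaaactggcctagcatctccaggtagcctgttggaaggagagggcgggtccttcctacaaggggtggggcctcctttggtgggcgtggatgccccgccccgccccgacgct
Slc30a3: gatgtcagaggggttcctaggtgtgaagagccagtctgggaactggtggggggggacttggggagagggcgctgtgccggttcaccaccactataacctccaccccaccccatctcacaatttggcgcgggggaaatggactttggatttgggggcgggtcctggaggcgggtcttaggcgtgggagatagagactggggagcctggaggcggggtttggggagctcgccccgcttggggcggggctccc
Nr4a2: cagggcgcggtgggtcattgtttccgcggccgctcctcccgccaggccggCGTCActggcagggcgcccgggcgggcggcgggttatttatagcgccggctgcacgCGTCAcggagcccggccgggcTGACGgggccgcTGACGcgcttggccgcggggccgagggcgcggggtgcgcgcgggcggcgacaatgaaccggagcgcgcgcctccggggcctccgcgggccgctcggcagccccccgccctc
The Slc17a7 window holds 1 E-box, and the Slc30a3 window holds neither motif. The Nr4a2 window holds 4 copies of TGACG or CGTCA and no E-box. Among 32851 windows of this length, 66.2% held an E-box, 17.8% held TGACG or CGTCA at least once and 0.137% held it 4 times or more. Nr4a2 also had a GC content of 80.0%, against a median of 52.4% over all windows.

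The labels were first checked on Shank3. Its normalized count was 6985 to 8717 in the WT cortex, 5748 to 6607 in the Shank3-HT cortex and 3689 to 4446 in the Shank3-HM cortex, and the 3 genotypes were ordered in the same way without overlap in the hippocampus and striatum. The sums of normalized counts were 26118607 to 29568983 per sample, and the sequencing depth is unknown. Several libraries stood apart. The Shank3-HM cortex replicate 2, described below, held transcripts of striatal spiny neurons, and WT striatum replicate 5 was high for several of the 9 genes. In Shank3-HT striatum replicate 5 the summed counts of 5 choroid plexus genes were 68145, against 447 to 1535 in the other 14 striatum samples. In the hippocampus this sum ran from 1272 to 122680.

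The 9 genes were first compared between regions in WT mice, to learn where each is found. Each value is a normalized count, and differences were tested in limma over the 9 groups with Benjamini-Hochberg adjustment. Between WT cortex and striatum 8 of the 9 genes differed, where 59.3% of the 16708 tested genes did. Of these, 6 were higher in the cortex, and Tle4 and Syt6 were higher in the striatum. Between WT cortex and hippocampus 5 of 9 differed (46.6% of all genes), and between WT hippocampus and striatum all 9 did (56.1% of all genes). The WT cortex and hippocampus samples did not overlap for 8 of the 9, as for 32% of all genes. Slc17a7, Slc30a3 and Rxfp1 were among these 8 but did not pass there, with errors pooled with the striatum.

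Slc17a7 encodes VGLUT1, which loads glutamate into synaptic vesicles of cortical and hippocampal neurons. Its counts in WT mice were 40525, 40285, 38226, 37488 and 38955 in the cortex. They were 37402, 34778, 35171, 29272 and 32706 in the hippocampus, and 1884, 940.2, 2137, 1405 and 7801 in the striatum. Every striatum sample lay below every sample of the other regions, and 1 of them lay far above the other 4. Slc17a7 was higher in the cortex than in the striatum by 4.21 on the log2 scale (SE 0.591, adjusted p = 5.45e-08). Cortex and hippocampus did not overlap, but their difference of 0.21 (SE 0.591, adjusted p = 0.796) carried an error that was pooled with the striatum, and it passed when these groups alone were fitted (adjusted p = 0.0169, chosen after seeing the data).

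Slc30a3, which encodes the transporter ZnT3 that fills synaptic vesicles with zinc, showed the largest cortex to striatum difference of the 9. It was 3082, 2965, 2961, 3043 and 3125 in the WT cortex, 1699 to 2088 in the WT hippocampus and 113, 27.2, 65.9, 42.2 and 232 in the WT striatum. The regions did not overlap. Between cortex and hippocampus the difference of 0.74 (SE 0.479, adjusted p = 0.208 in limma) did not pass. It passed when these groups alone were fitted (adjusted p = 2.67e-07, chosen after seeing the data). The cortex exceeded the striatum by 5.37 on the log2 scale (SE 0.479, adjusted p = 5.54e-13 in limma).

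The 4 transcription regulators of layers each followed a pattern of their own. Cux2, a homeobox factor of upper layer neurons, was 4293 to 5240 in the WT cortex, 549 to 702 in the hippocampus and 280 to 570 in the striatum. It exceeded the striatum by 3.70 (SE 0.132, adjusted p = 5.67e-25) and the hippocampus by 2.93 (SE 0.132, adjusted p = 5.31e-22) in limma. Rorb, a nuclear receptor of layer 4, was 1237 to 1682 in the WT cortex. Its hippocampal counts of 391 to 537 lay below the striatal counts of 580.4 to 640.3, and both lay below the cortex. Etv1, an ETS factor of layer 5, was 2534 to 3084 in the cortex, 3018 to 3460 in the hippocampus and 2015 to 2480.1 in the striatum, so that cortex and hippocampus overlapped. Tle4, a corepressor of layer 6 corticothalamic neurons, was highest in the striatum. It was 1020.3 to 1162 in the WT cortex, 1202 to 1358 in the hippocampus and 2827 to 3786 in the striatum, and was lower in the cortex than in the striatum by −1.55 on the log2 scale (SE 0.0799, adjusted p = 2.99e-20 in limma).

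Syt6, a synaptotagmin used as a marker of deep layer neurons, was the most striatal of the 9. Its counts were 453, 555, 453, 484 and 367 in the WT cortex, 142 to 175 in the hippocampus and 5374, 5507, 5565, 5442 and 4739 in the striatum. The difference of cortex minus striatum was −3.53 (SE 0.214, adjusted p = 4.21e-18) and that of hippocampus minus striatum was −5.01 (SE 0.214, adjusted p = 2.42e-23) in limma. Syt6 and Tle4 were thus the 2 genes of the 9 that were higher in the WT striatum than in the WT cortex.

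Nr4a2 encodes the nuclear receptor Nurr1, a marker of the claustrum and layer 6b, and Rxfp1 encodes the relaxin receptor. Nr4a2 was 229 to 454 in the WT cortex, 1195 to 1562 in the hippocampus and 144, 206, 273, 332 and 1280.3 in the striatum. The cortex and striatum overlapped, with a difference of 0.09 (SE 0.502, adjusted p = 0.889 in limma), and the hippocampus was higher than the cortex, by −1.98 for cortex minus hippocampus (SE 0.502, adjusted p = 0.00108). Rxfp1 was 656 to 851 in the WT cortex, 279 to 525 in the hippocampus and 31.8, 55.1, 98.3, 69.6 and 328 in the striatum. It was higher in the cortex than in the striatum by 3.11 (SE 0.540, adjusted p = 3.46e-06 in limma). As with Slc17a7, WT striatum replicate 5 was the highest of the striatum for both genes.

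**Figure D1:**
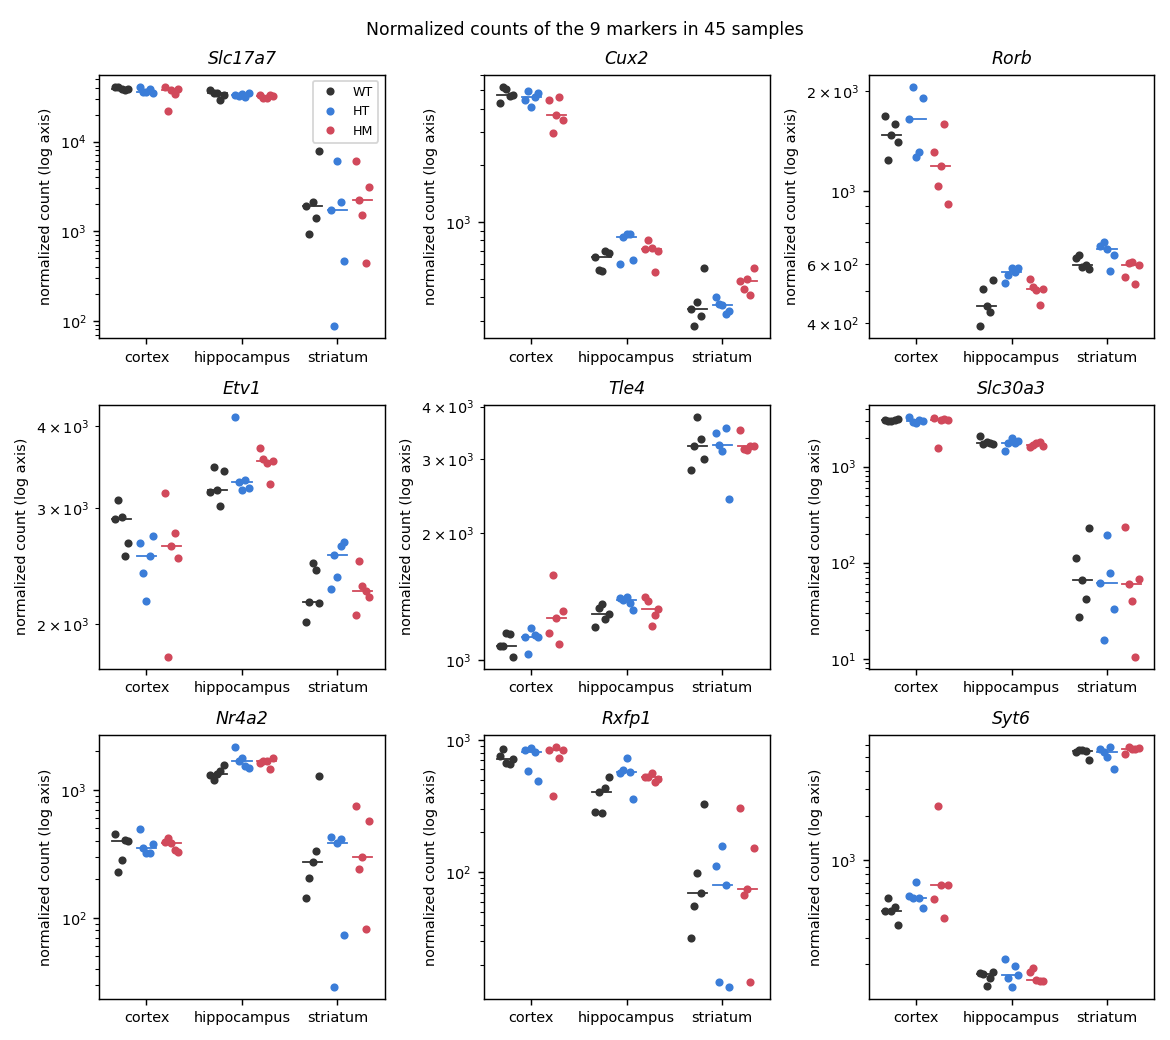
Normalized counts (log axis) of each of the 9 genes in the 45 samples, by region (horizontal axis) and genotype (colour), with a point per sample and a line at each median of 5. Slc17a7, Slc30a3, Nr4a2 and Rxfp1 spread widely in the striatum, and 1 Shank3-HM cortex sample is low for Slc17a7 at 21676 and high for Syt6 at 2331.

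The striatum samples were next compared among themselves. Slc17a7 ranged from 86.5 in Shank3-HT replicate 2 to 7801 in WT replicate 5, a 90.2-fold range. Its counts were 1706, 86.5, 6039, 2137 and 467 in Shank3-HT and 6032, 2217, 1501, 439 and 3129 in Shank3-HM mice. High and low samples occurred in every genotype, with ranges of 8.30-fold among WT, 69.8-fold among Shank3-HT and 13.7-fold among Shank3-HM mice. In the hippocampus, the 15 samples spanned 1.28-fold.

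Slc30a3 was 61.2, 15.7, 196, 77.4 and 33.3 in Shank3-HT and 235, 59.5, 40.2, 10.5 and 68.4 in Shank3-HM striatum. Nr4a2 was 431, 28.9, 387, 411 and 73.0 in Shank3-HT and 743, 241, 301, 81.3 and 568 in Shank3-HM striatum. Rxfp1 was 112, 14.7, 158, 79.5 and 13.6 in Shank3-HT and 307, 67.9, 74.5, 14.7 and 153 in Shank3-HM striatum. Across the 15 striatum samples these 3 genes ranged 22.3-fold, 44.3-fold and 24.1-fold, and Shank3-HT replicates 2 and 5 and Shank3-HM replicate 4 were among the 4 lowest for each of them and for Slc17a7. The SD of log2 values over the 15 striatum samples was 1.67 for Slc17a7, 1.43 for Rxfp1, 1.39 for Nr4a2 and 1.29 for Slc30a3, against a median of 0.162 over 16482 genes. Between 99.2% and 99.5% of the genes had a smaller SD.

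The other 5 genes varied less. Cux2 ranged 2.04-fold over the striatum samples, with an SD of 0.31. Tle4 ranged 1.57-fold, Syt6 1.42-fold, Rorb 1.34-fold and Etv1 1.32-fold, with SDs of 0.11 to 0.15, at or below the median gene. In fold terms, neither upper layer Cux2 nor layer 4 Rorb thus spread as Slc17a7 did. The lowest striatum sample was at 0.221% of the WT cortex mean for Slc17a7, 5.83% for Cux2 and 35.5% for Rorb. A higher lowest level narrows a fold range, so these ranges alone do not compare the amounts gained.

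To set these genes against a measure of cortical tissue, an index was made for each sample from 64 genes other than the 9, each at 500 or more in the WT cortex and at least 8 times higher there than in the WT striatum. The index is the median of their counts, in percent of the WT cortex mean. It is no share of tissue, since each of these genes also has a striatal level of its own, and WT striatum samples helped to choose its genes. It ranged from 3.31% in Shank3-HT replicate 2 to 17.0% in WT replicate 5 over the striatum samples. The medians were 6.56% for WT mice, 6.36% for Shank3-HT and 6.74% for Shank3-HM mice, and the genotypes overlapped.

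Over the 15 striatum samples, Slc17a7 followed this index with a Pearson's r of 0.989 and a Spearman's rho of 0.957. In a two-sided permutation test both p values were 1e-05, the smallest that 100000 permutations give, and 4.5e-05 after adjustment over the 9 genes. For Slc30a3 r was 0.958 (permutation p = 4e-05, adjusted p = 0.00012) and rho 0.961 (permutation p = 1e-05, adjusted p = 4.5e-05). For Rxfp1 r was 0.919 (permutation p = 1e-05, adjusted p = 4.5e-05) and rho 0.786 (permutation p = 0.00078, adjusted p = 0.00234). For Nr4a2 r was 0.853 (permutation p = 0.00015, adjusted p = 0.000337) and rho 0.746 (permutation p = 0.00197, adjusted p = 0.00443). Without Shank3-HT replicate 3 and WT replicate 5, the samples farthest from the median of the index, r was 0.972 for Slc17a7, 0.924 for Slc30a3, 0.930 for Rxfp1 and 0.870 for Nr4a2. With values taken as deviations from their genotype mean, the 4 r were 0.990, 0.958, 0.929 and 0.859.

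The remaining 5 genes did not pass. Cux2 had an r of 0.531 (permutation p = 0.0379, adjusted p = 0.0682) and a rho of 0.350 (permutation p = 0.201, adjusted p = 0.301). Its r was 0.668 within genotypes (adjusted p = 0.0158 by permutation), 0.497 without the 2 farthest samples and 0.324 without WT replicate 5. It passed without Shank3-HT replicate 3 (r = 0.659, adjusted p = 0.0178 by permutation) and without Shank3-HM replicate 3 (r = 0.61, adjusted p = 0.0354 by permutation). For Syt6, Etv1, Rorb and Tle4 r was −0.395, −0.384, −0.178 and −0.009, and rho −0.193, −0.368, −0.279 and −0.082, with adjusted permutation p values of 0.196 to 0.971 for r and of 0.301 to 0.771 for rho. Syt6 reached −0.762 (adjusted p = 0.00625 by permutation) when Shank3-HT replicate 5, which had the lowest Syt6 and Tle4 of all striatum samples and held choroid plexus transcripts, was left out. Without it r was 0.996 for Slc17a7, 0.959 for Slc30a3, 0.925 for Rxfp1 and 0.855 for Nr4a2.

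**Figure D2:**
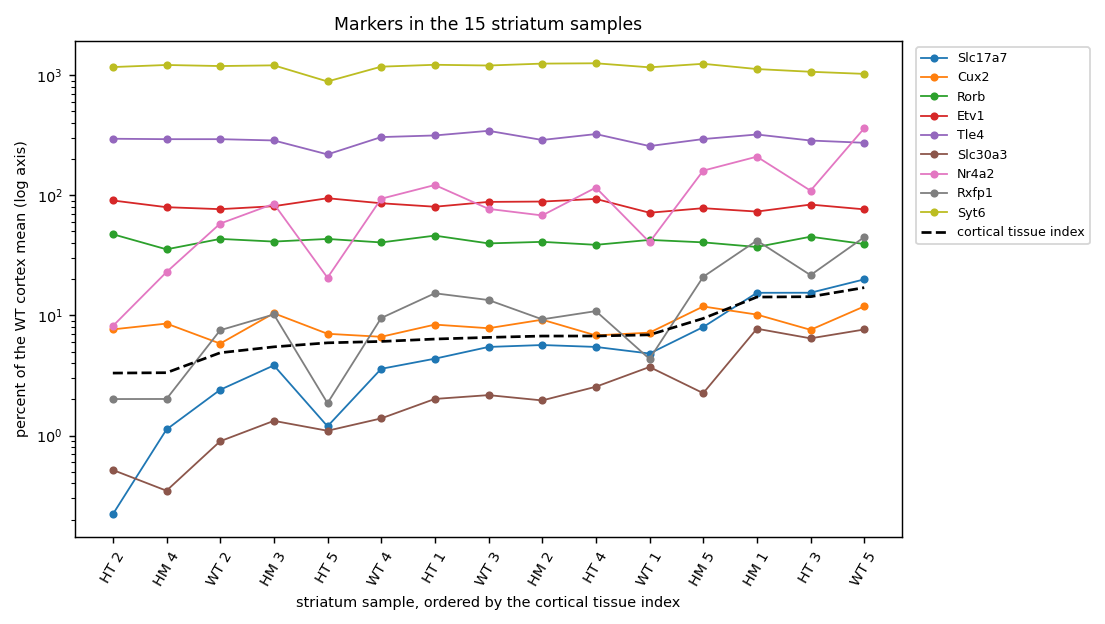
Each of the 9 genes in the 15 striatum samples in percent of its WT cortex mean (log axis), with the samples ordered along the horizontal axis by the cortical tissue index (dashed), from 3.31% to 17.0%. Slc17a7, Slc30a3, Nr4a2 and Rxfp1 climb with the index, while Syt6, Tle4, Etv1 and Rorb vary by 1.57-fold or less and Cux2 by 2.04-fold.

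The 3 genes whose striatal pattern was most like that of each gene, Etv1 aside, were taken by Pearson's r of log2 values within genotypes over the 15 samples, as a description. For Slc17a7 they were Neurod2 (0.995), Tbr1 (0.990) and Neurod6 (0.98), which encode transcription factors of cortical glutamatergic neurons. For Slc30a3 they were Vip (0.977), Cck (0.954) and Bhlhe22 (0.952), of which Vip and Cck encode neuropeptides. For Nr4a2 they were Rxfp1 (0.950), Bdnf (0.947) and Smoc2 (0.946), and for Rxfp1 they were Bdnf (0.962), Nr4a2 (0.950) and Ntng2 (0.926). Nr4a2 and Rxfp1 were thus closer to each other than to Slc17a7. For Cux2 the nearest were Acad11 (0.859), Gm2237 (0.834) and Pvr (0.821), and for Syt6 Actr2 (0.947), Jade1 (0.927) and Map3k13 (0.914). For Tle4 they were Srpk1 (0.900), Gabbr1 (0.887) and Gm37277 (0.876), and for Rorb Gm4876 (0.886), Tmeff2 (0.851) and S100a1 (0.835).

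The amounts that moved together were then set against those of the cortex. A line was fitted for each gene on Slc17a7 over the striatum samples, and its slope, in counts per 1000 counts of Slc17a7, was compared with the ratio of the genes in the WT cortex. Nr4a2 gained 120 per 1000 Slc17a7 (SE 18.9), where the WT cortex held 9.07 ± 2.40 (SD, n = 5), so that the slope was 13.3 times the cortical ratio. It was 9.30 times without WT replicate 5 and 16.02 times without Shank3-HT replicate 3. Rxfp1 gained 39.6 (SE 4.26) against 18.7 ± 1.46 in the WT cortex, 2.12 times. Slc30a3 gained 31.4 (SE 2.60) against 77.7 ± 3.08, 0.405 times. Cux2 gained 21.8 (SE 9.03) against 123 ± 10.6, 0.177 times, with an intercept of 352 at no Slc17a7. Syt6, Etv1 and Rorb had negative slopes, and that of Tle4 changed sign with single samples left out. The Slc17a7 that varied between striatum samples therefore came with more Nr4a2 and Rxfp1, and with less Slc30a3 and Cux2, than Slc17a7 of the dissected WT cortex. The WT hippocampus held 40.7 Nr4a2, 11.6 Rxfp1, 53.9 Slc30a3 and 18.8 Cux2 per 1000 Slc17a7. The source of the varying Slc17a7 was not tested.

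**Figure D3:**
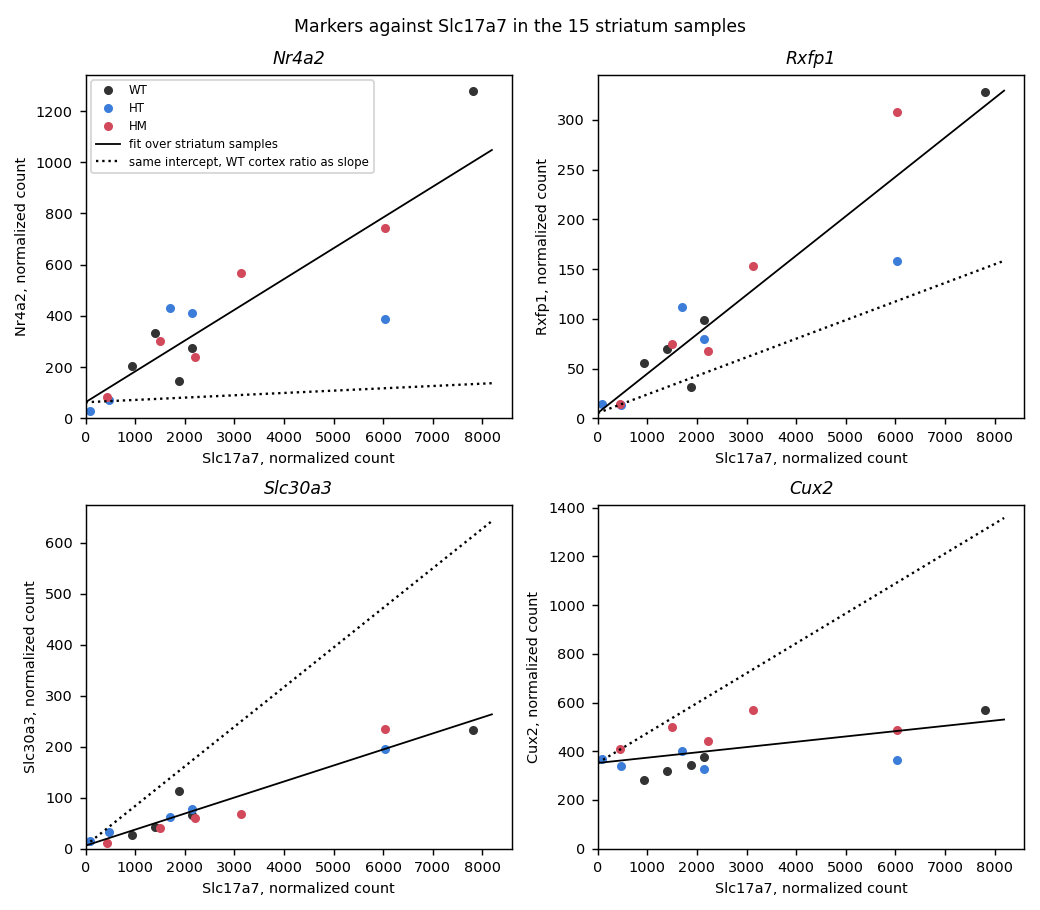
Normalized counts of Nr4a2, Rxfp1, Slc30a3 and Cux2 (vertical axes) against Slc17a7 (horizontal axes) in the 15 striatum samples, with the fitted line (solid) and a line of the same intercept with the WT cortex ratio as slope (dotted). The fitted slope is above the dotted one for Nr4a2 at 120 against 9.07 per 1000 and for Rxfp1 at 39.6 against 18.7, and below it for Slc30a3 and Cux2.

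The same slopes were counted over lists of related markers. Of 10 layer 6b and claustral genes, 9 had a positive slope on Slc17a7 and 8 a slope above their WT cortex ratio. Their r ran from −0.141 to 0.949 with a median of 0.613, 2 were over 0.8, and 6 of the 10 stayed above the ratio whichever single sample was left out. Oprk1, with an r of 0.185, and Lxn did not stay above it without WT replicate 5. Moxd1, with a slope of −1.89, and Synpr, at 0.953 times, did not exceed it with all samples. Between WT cortex and striatum, 6 of the 9 tested genes of this list were higher in the striatum and 2 in the cortex. Named after their values were seen, Nxph4 gained 8.83 per 1000 against 0.530 in the WT cortex (16.7 times), Cplx3 37.7 against 7.36 (5.12 times), Ccn2, a growth factor of layer 6b, 49.5 against 10.3 (4.79 times) and Ntng2 41.8 against 13.4 (3.13 times). Of 13 deep layer genes, 7 had a positive slope and 5 exceeded their cortical ratio. Also named after their values were seen, these were Ntsr1 (2.58 times), Rprm (2.13 times), Sulf1 (1.69 times, with an r of 0.153), Hs3st4 (1.44 times) and Tbr1 (1.20 times). Sulf1 was below its ratio without WT replicate 5. Foxp2, also of layer 6, had a slope of −13.9 (SE 32.9). Of 9 upper layer genes, 2 had a positive slope and none exceeded its cortical ratio with all samples. The nearest was Whrn at 0.959 times, which ran from 0.179 times without WT replicate 5 to 1.42 times without Shank3-HT replicate 5. Of 8 genes of all cortical excitatory neurons, all had a positive slope and 2 exceeded it, Neurod6 (1.18 times) and Neurod2 (1.03 times, and 0.990 without Shank3-HM replicate 1). None of the 12 genes of striatal spiny projection neurons had a positive slope with all samples, while Tac1 and Pdyn did without Shank3-HT replicate 3 and Ppp1r1b without WT replicate 5. Positive slopes were found for 6 of 6 oligodendrocyte (r of 0.069 to 0.286), 5 of 9 hippocampal, 3 of 7 interneuron, 2 of 5 astrocyte, 2 of 5 microglial, 2 of 5 thalamic and 0 of 5 choroid plexus genes. Among these, 5 oligodendrocyte, 1 hippocampal, 1 astrocyte and 1 microglial gene exceeded their cortical ratio. Without Shank3-HT replicate 3, 0 of the 6 oligodendrocyte genes had a positive slope, and without Shank3-HT replicate 5, 5 of the 9 hippocampal genes exceeded their ratio. Slopes of genes that striatal neurons express themselves also carry the variation of that level, and no test was made between the lists.

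One cortex sample showed the reverse. Slc17a7 was 21676 in replicate 2 of the Shank3-HM cortex, where the other 14 cortex samples lay between 33605 and 41130. Slc30a3 was 1553 there against 2843 to 3302 in the others, and Rxfp1 376 against 488 to 886. Syt6 was 2331 against 367 to 709.8, and Tle4 1597 against 1020.3 to 1311. Of the 6 genes that were higher in the WT cortex than in the WT striatum, all but Rorb were lowest in this cortex sample. Rorb was 1034 there and lower in Shank3-HM replicate 5, at 913. Etv1, at 1785, also lay below every striatum sample (2015 to 2661). Tle4 and Syt6, which were higher in the WT striatum, were highest in it among the cortex samples. Its striatal tissue index, made in the same way from 75 genes, was 27.0% of the WT striatum, against 4.87% to 6.98% in the other cortex samples, and its cortical index was 57.4%. The summed counts of the 12 spiny neuron genes, which include Drd1, Drd2 and Ppp1r1b, were 58459 there and 8082 to 10517 in the rest. Over the other 14 cortex samples none of the 9 genes passed in a permutation test of its correlation with the striatal index (lowest adjusted p = 0.112, for Slc30a3 with r = 0.654 and rho = 0.653). No r over all 15 is given, because this sample lies apart from the rest.

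**Figure D4:**
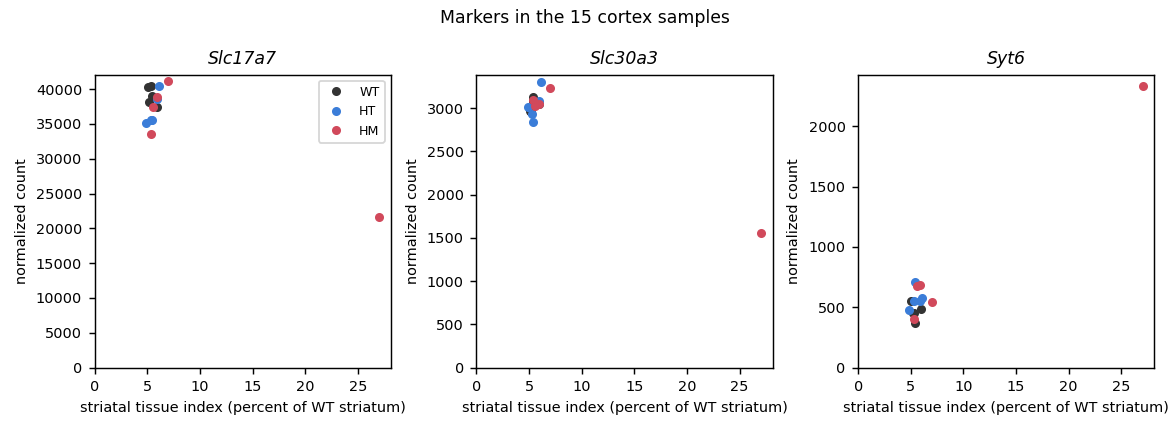
Normalized counts of Slc17a7, Slc30a3 and Syt6 (vertical axes) in the 15 cortex samples against the striatal tissue index (horizontal axes, percent of WT striatum), a point per sample coloured by genotype. A single Shank3-HM sample lies at 27.0%, with 2331 counts of Syt6 and 21676 of Slc17a7, and the other 14 lie between 4.87% and 6.98%.

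The genotypes were then compared within each region, which asks if the mutation changed any of the 9 genes. No gene passed in limma in any of the 6 comparisons, and in none did the 5 mutant samples of a gene lie wholly apart from the 5 WT samples. Of all genes tested, 0% passed for Shank3-HT and 0.0121% for Shank3-HM in the cortex. In the hippocampus 0.00603% passed for Shank3-HT and likewise 0.00603% for Shank3-HM, and in the striatum 0.00607% and 0.182%. The share of all genes whose groups did not overlap was 0.63% and 0.8% in the cortex, 0.797% and 0.736% in the hippocampus and 0.971% and 1.86% in the striatum, for Shank3-HT and Shank3-HM. At an unadjusted p under 0.05 there were 0 and 3 of the 9 genes in the cortex, 4 and 2 in the hippocampus and 1 and 1 in the striatum. Of all genes there were 443 and 907 of 16507 in the cortex, 871 and 783 of 16571 in the hippocampus and 1224 and 1225 of 16482 in the striatum.

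In the cortex, Cux2 was 4442, 2978, 3684, 4589 and 3491 in Shank3-HM and 4293, 5240.1, 5081, 4678 and 4705 in WT mice. The groups overlapped, and the difference was −0.34 on the log2 scale (SE 0.0976, unadjusted p = 0.00292, adjusted p = 0.878 in limma). Without replicate 2 of the Shank3-HM cortex it was −0.25 (adjusted p = 0.895). Tle4 differed by 0.21 (SE 0.0813, adjusted p = 0.878) and Syt6 by 0.71 (SE 0.310, adjusted p = 0.878) in limma, and without that replicate, which held striatal transcripts, by 0.13 and 0.30 (adjusted p = 0.939 for both). In the Shank3-HT cortex the 9 differences lay between −0.18 (Etv1) and 0.31 (Syt6).

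In the hippocampus, Nr4a2 was 1305, 1195, 1336, 1414 and 1562 in WT, 2171, 1694, 1794, 1531 and 1488 in Shank3-HT and 1619.9, 1674, 1676, 1457 and 1780.2 in Shank3-HM mice. Both mutant groups had a higher median than WT and overlapped it. The log2 differences were 0.34 (SE 0.0925, adjusted p = 0.828) and 0.27 (SE 0.0925, adjusted p = 0.920) in limma. Rxfp1 was 284, 404, 279, 434 and 525 in WT mice, 566, 589, 728, 572 and 355 in Shank3-HT and 523, 529, 562, 483 and 507 in Shank3-HM mice. It differed by 0.55 (SE 0.176, adjusted p = 0.926) and 0.48 (SE 0.176, adjusted p = 0.920) in limma. The comparisons share the WT samples. Rorb differed by 0.29 and Cux2 by 0.26 in Shank3-HT mice (adjusted p = 0.828 and 0.926), and Slc17a7 by −0.02 and −0.08 with an SE of 0.0571 in Shank3-HT and Shank3-HM mice.

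In the striatum, the errors of the 4 genes that spread between samples were large. Slc17a7 differed by −1.11 in Shank3-HT (95% interval −3.01 to 0.80) and by −0.12 in Shank3-HM mice (−2.02 to 1.79). The SE was 0.904 for Slc17a7, 0.797 for Rxfp1, 0.755 for Nr4a2 and 0.730 for Slc30a3, against 0.0571 for Slc17a7 in the hippocampus. Cux2 was 345, 279.9, 376, 319 and 570.4 in WT, 403, 367, 364, 327 and 338 in Shank3-HT and 488, 442, 501, 411 and 569.8 in Shank3-HM mice. All 5 Shank3-HM samples were above 4 of the 5 WT samples, and WT replicate 5, the sample with the highest cortical index, overlapped them. Cux2 differed by 0.39 between Shank3-HM and WT (SE 0.145, adjusted p = 0.512 in limma). Leaving out WT replicate 5, the highest WT value, gave 0.55, which passed (adjusted p = 0.0440, with 31 genes passing over all). Leaving out WT replicate 2, the lowest WT value, gave 0.29, which did not pass. Etv1 differed by 0.15 in Shank3-HT mice (SE 0.0670, adjusted p = 0.659). Of the 12 marker lists, 1 gene passed in any of the 6 comparisons, the upper layer gene Lamp5, which rose by 0.53 in the Shank3-HM striatum (SE 0.0671, adjusted p = 0.00178 in limma). It was 1 of 9 upper layer genes, whose median difference there was 0.01 on the log2 scale, and 1 of 30 genes that passed among the 16482 tested (0.182%).

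**Figure D5:**
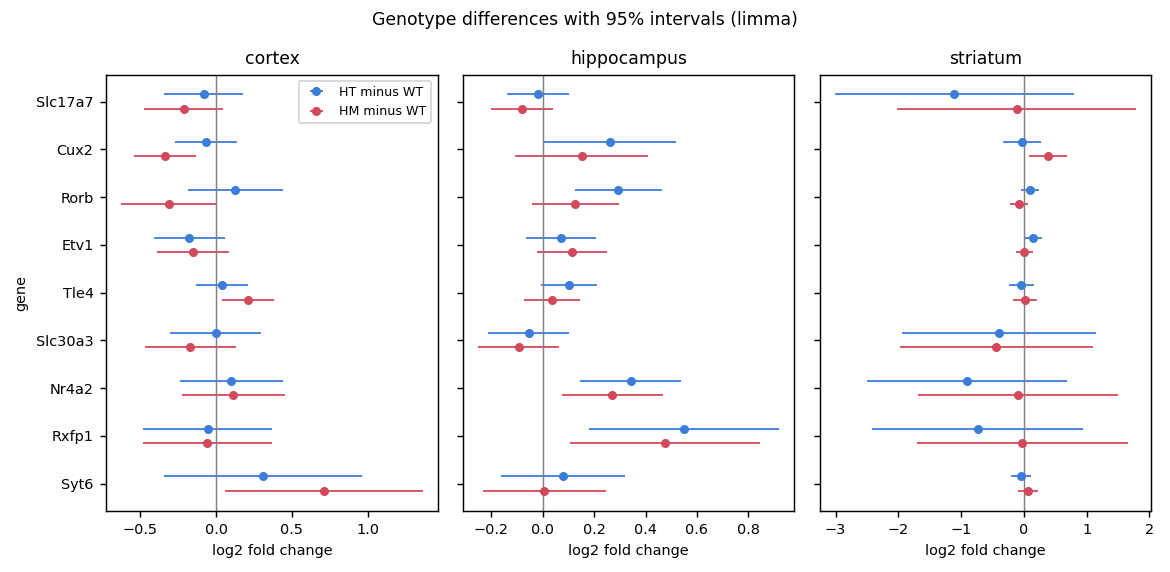
Log2 fold changes of the 9 genes (vertical axis) for Shank3-HT and Shank3-HM against WT in each region, with 95% intervals from limma. The striatal intervals of Slc17a7, Slc30a3, Nr4a2 and Rxfp1 are the widest, for Slc17a7 from −3.01 to 0.80 in Shank3-HT mice, and no difference passed after adjustment.

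Whether a genotype difference itself differed between regions was tested as an interaction in limma. None of the 9 genes passed in any of the 4 tests. Of all genes, 0% passed for Shank3-HT between striatum and cortex and 0% between striatum and hippocampus, and 0.0539% and 0.0718% passed for Shank3-HM. The Shank3-HM difference of Cux2 was higher in the striatum than in the cortex by 0.72 (SE 0.187, unadjusted p = 0.000368, adjusted p = 0.195 in limma). It was 0.88 and passed without striatum WT replicate 5 (adjusted p = 0.0075), when calls over all genes went from 9 to 22. The difference was 0.63 without striatum WT replicate 2 and 0.64 without cortex Shank3-HM replicate 2 (adjusted p = 0.434 for the latter). At an unadjusted p under 0.05 there were 1, 0, 2 and 0 of the 9 genes in the 4 tests, and 578, 935, 906 and 897 of the 16708 genes tested.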

How the data were processed

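The authors quantified stranded mRNA libraries with Salmon (1.1.0, GRCm38, GC bias correction), imported the estimates with tximport and normalized them with DESeq2 over all 45 samples. The deposited values are a normalized signal (normalized counts with decimals), in which whole reads could not be recovered, so that no count model was run. The authors' processing notes name R 3.6.2 and DESeq2 1.26.0, and 0 columns were left unmatched. Mutant columns coded KI were taken as Shank3-HM.

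A pseudocount of 1 was added before the log2 transform, and genes whose mean reached 10 were fitted per region (3 genotypes) or over the 9 groups in limma 3.58.1 (R 4.3.3, intensity trend) with Benjamini-Hochberg adjustment over all genes tested and a threshold of 0.05. The test was checked on simulated data. Correlations used 100000 permutations (Python 3.11.15, numpy 2.4.6, scipy 1.17.1, pandas 2.3.3, matplotlib 3.10.9).

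The 9 genes and all lists were chosen with earlier results of these data known. Named were the 9 genes, the 3 genes most like each of them (not reported here for Etv1), list genes that passed, Shank3, and list genes marked in the text as picked with values in view. Lists of upper layer (9 genes), deep layer (13), layer 6b and claustral (11, of which 10 were in the table), pan-cortical (8) and striatal spiny neuron (12) markers were written from general knowledge. So were lists of hippocampal, interneuron, oligodendrocyte, astrocyte, microglial, choroid plexus and thalamic markers. IDs were matched to symbols for 18120 of 18135 genes. Promoter windows are from RefSeq, and 8 of the 9 genes had one. Alternatives were a pseudocount of 0.1, no filter, a mean of at least 100, no trend, quantile and median-of-ratios scaling, and fits of 2 groups alone. The replicate number (with genotype over the 9 groups) was also used as a block. Other index genes (16 times higher, or also above the hippocampus) were tried, and each sample was left out in turn.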

Additional observations from a re-analysis of the deposited data

Results flagged for a closer look

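Of 81 groups of 5 samples, 10 held a sample far from its group (gap to the nearest over the range above 0.71), where chance flags about 1 in 20 groups. In WT striatum, replicate 5 was apart for Slc17a7 at 7801 (others 940.2 to 2137), Nr4a2 at 1280.3 (others 144 to 332), Rxfp1 at 328 (others 31.8 to 98.3) and, on the low side, Syt6 at 4739 (others 5374 to 5565). In the Shank3-HM striatum, replicate 1 was apart for Slc30a3 at 235 (others 10.5 to 68.4) and Tle4 at 3529 (others 3148 to 3233). In the Shank3-HM cortex, replicate 2 was apart for Slc30a3 at 1553 (others 3021 to 3231) and Syt6 at 2331 (others 405 to 684). In the hippocampus, replicate 1 of Shank3-HT was apart for Etv1 at 4129.8 (others 3196 to 3305) and replicate 1 of WT for Slc30a3 at 2088 (others 1699 to 1812). No genotype difference of the 9 genes passed a test of its difference between regions, in 36 tests.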

How the results depend on the processing

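The counts of the 9 genes past the threshold moved by over 1.5 times in 3 of 263 alternatives. Fitting only the WT cortex and hippocampus (chosen after seeing the data) raised that count from 5 to 9, while calls over all genes went from 7790 to 7031. Leaving out single samples gave 0 to 1 genes for Shank3-HM against WT in the striatum and 0 to 1 for its difference between striatum and cortex, in both cases Cux2 without striatum WT replicate 5. The WT cortex minus striatum difference of Nr4a2, 0.09, ran from −0.20 to 0.59 with single samples left out (−0.20 without striatum WT replicate 1, −0.07 without replicate 2, −0.01 without cortex WT replicate 1). Tle4 left the threshold between WT cortex and hippocampus without cortex WT replicate 5 (adjusted p = 0.0540 in limma).

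The correlation of Cux2 with the cortical index was 0.668 within genotypes and ran from 0.324 to 0.659 with single samples left out. That of Tle4, −0.009, was 0.043 with index genes also above the hippocampus, 0.012 on the log2 scale, 0.231 without the 2 farthest samples and −0.138 to 0.132 with single samples left out. That of Syt6 ran from −0.762 to −0.225, and its spread from 0.0851 to 0.139. The slopes on Slc17a7 ran from 84.4 to 145 for Nr4a2 and from 35.6 to 44.9 for Rxfp1. The cause of these shifts was not tested.

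The labels do not say that a number marks one mouse. Deviations of samples with one number and genotype correlated between regions at −0.100 to 0.225 (median 0.067, 16 of 45 pairs over 0.1, duplicate correlation 0.121). Those with one number in a region correlated between genotypes at −0.119 to 0.15 (median 0.022, 7 of 45). Samples of one genotype with different numbers were not compared, so these values do not settle whether a number marks one mouse. The main fits did not pair the samples. With the replicate block the count was 6 between WT cortex and hippocampus (Etv1 added, adjusted p = 0.0408 in limma) and was not moved for the other comparisons. Etv1, with an adjusted p of 0.0513 in the main limma fit, also passed with quantile normalization (0.0111) and with a mean of at least 100 (0.0489). It passed as well without cortex WT replicate 2 (0.0336) or hippocampus WT replicate 4 (0.0402). Over all genes, the block took the calls from 30 to 39 for Shank3-HM in the striatum and from 9 to 20 for its difference between striatum and cortex. Leaving out single samples gave 12 to 33 calls for Shank3-HM in the striatum, and 4 to 22 for its difference between striatum and cortex. For its difference between striatum and hippocampus, 12 calls became 15 with the block and 2 to 12 with single samples left out. Depth is unknown, and levels near 10 rest on few reads.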

Other observations

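Replicate 5 of the Shank3-HT striatum stood apart in another way. It had the lowest striatal Tle4 (2409.6 against 2827 to 3786 in the other 14 samples) and the lowest Syt6 (4098 against 4739 to 5807), while its cortical index was 5.91% and its Slc17a7 467. Its striatal index was 85.4%, close to the 85.3% of Shank3-HT replicate 3 and the 83.6% of WT replicate 5, whose cortical indices were 14.3% and 17.0%. Its summed counts of 5 choroid plexus genes, among them Ttr, which encodes transthyretin, were 68145, against 447 to 1535 in the other 14 striatum samples. The part of choroid plexus in its low Tle4 and Syt6 was not tested.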
